A study of Mus musculus with 27 samples.

Results

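Liver cell DNA of the inbred strains C57BL/6J and NZO/HlLtJ was compared for CpG methylation. The 6 samples were taken by their strain labels, 3 of C57BL/6J (titled as biological replicates 1, 2 and 4) and 3 of NZO/HlLtJ (1, 2 and 3), out of 27 samples of 9 strains in the series. All came from hepatocytes of female mice aged 12 weeks, and the labels name no treatment, transgene or other allele for either strain. The series also profiled histone marks and transcripts, with the aim of tying sequence differences between strains to chromatin. C57BL/6J is the strain of the mouse reference genome and stays lean on ordinary chow. NZO/HlLtJ, the New Zealand Obese strain, becomes obese from many loci at once and serves as a model of obesity-linked diabetes. Body weight, diet and blood glucose are not in the labels, so lean and obese below are names of strains and not measurements of these mice. Every locus that differs between the strains also moves with the comparison, so that strain, body weight and sequence cannot be told apart here.

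Methylation of cytosine in CpG dinucleotides is a covalent mark copied at cell division. CpG-rich gene starts are usually free of it, and dense methylation of such a start is a known companion of a silent promoter, while gene bodies and the space between genes are mostly methylated. In hepatocytes, distal regulatory regions bound by liver transcription factors are commonly low in methylation, and the liver is where lipogenesis, gluconeogenesis, bile acid synthesis and drug clearance take place. Reduced representation bisulfite sequencing (RRBS) reads CpGs next to sites of the enzyme MspI, which gives dense data at gene starts and patches of data elsewhere.

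The compared units were positions, each being 1 strand of a CpG with a percent methylation, and tiles, the means of all shared positions in fixed windows of 1 kb. Of 5240546 positions listed in at least 1 of the 27 files, 2356621 were listed in all 6 files, and 2356391 of these lay on the autosomes or the X chromosome. They gave 104399 tiles with 5 or more positions, of which 82960 had a mean over the 6 samples at least 2.5 points away from 0 and from 100% and were tested. Calling a tile took a limma adjusted p under 0.05 together with a difference of at least 25 percentage points between strain means. Gene names, starts and coordinates are those of assembly GRCm38.p6, and a tile belongs to a gene when it overlaps the gene's span or lies within 5 kb of it.

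Of the promoter windows that had 5 or more listed positions and lay in a called tile, the 3 that differed most between the strains are shown. Larger differences in tiles at other starts, whose windows did not meet these limits, are given further below. The windows were picked after their values were seen. Each sequence is the 250 bases before an annotated start, written 5′ to 3′ on the gene's strand, from RefSeq (GRCm38.p6). Capitals mark the CpG bases listed in all 6 files.

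Trim7, chr11:48825888-48826137, plus strand: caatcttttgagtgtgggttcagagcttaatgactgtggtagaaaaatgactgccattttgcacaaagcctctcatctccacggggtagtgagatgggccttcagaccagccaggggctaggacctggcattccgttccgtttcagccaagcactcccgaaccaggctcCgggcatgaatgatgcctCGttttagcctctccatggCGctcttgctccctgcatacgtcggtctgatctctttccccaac
B3galt4, chr17:33951489-33951738, minus strand: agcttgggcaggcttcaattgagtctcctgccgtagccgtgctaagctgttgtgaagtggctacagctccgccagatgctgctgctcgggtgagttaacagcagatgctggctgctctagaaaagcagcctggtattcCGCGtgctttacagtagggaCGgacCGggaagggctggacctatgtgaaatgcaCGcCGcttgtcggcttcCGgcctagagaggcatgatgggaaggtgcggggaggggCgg
Gm42365 at C1qtnf12, chr4:155962494-155962743, plus strand: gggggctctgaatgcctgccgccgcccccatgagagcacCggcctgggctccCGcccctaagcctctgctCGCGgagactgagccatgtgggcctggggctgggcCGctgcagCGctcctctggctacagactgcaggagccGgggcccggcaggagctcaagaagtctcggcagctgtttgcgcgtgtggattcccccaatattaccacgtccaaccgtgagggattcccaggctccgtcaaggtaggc

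Trim7 encodes an E3 ubiquitin ligase that binds glycogenin, the primer of glycogen synthesis. The 5 positions of its promoter window averaged 0.0, 4.44 and 0.0% in the C57BL/6J samples and 78.0, 91.4 and 86.0% in the NZO/HlLtJ samples. These positions, all in the downstream part of a window with 9 CpGs, were low in every C57BL/6J sample and high in every NZO/HlLtJ sample. The other CpGs of the window were not listed in all 6 files. B3galt4, a galactosyltransferase of ganglioside synthesis, showed the opposite. Its 15 positions averaged 56.8, 68.0 and 60.3% in C57BL/6J against 5.6, 5.68 and 7.66% in NZO/HlLtJ. C1qtnf12 encodes adipolin, a secreted protein of the C1q and TNF-related family that acts on insulin sensitivity. The window there, which belongs to the overlapping gene model Gm42365, held 12 positions at 26.0, 28.9 and 22.9% in C57BL/6J and at 72.5, 69.7 and 72.7% in NZO/HlLtJ. The C1qtnf12 tile that these 12 positions make up differed by 45.7 points (limma adjusted p = 0.0072), and its call was lost without any 1 of the NZO/HlLtJ samples. A percent is taken over all DNA copies in a sample, so that fewer methylated cells and partial methylation in every cell cannot be told apart.

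The files list 2916034 to 3115149 positions per sample and give no read counts, so the depth behind a value is unknown. Mean methylation over the shared positions was 37.6% ± 0.13 for C57BL/6J and 37.9% ± 0.163 for NZO/HlLtJ (SD, n = 3 each). The difference of 0.236 points did not pass an exact two-sided permutation test (p = 0.2, the smallest possible being 0.1). Over positions listed in all 27 files the difference was 0.254 points, and the test gave p = 0.1 (exact permutation), the smallest it can. Across positions, which are not independent, the Pearson correlation was 0.955 to 0.96 between NZO/HlLtJ samples, 0.933 to 0.943 between C57BL/6J samples and 0.937 to 0.953 between samples of different strains. The C57BL/6J samples thus varied more, and the median SD over the 3 samples of a tile was 3.44 points in C57BL/6J and 2.73 points in NZO/HlLtJ. The C57BL/6J files also name the mitochondrial chromosome differently from the files of the other strains, and any difference of processing behind that name cannot be told apart from strain.

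Of the 82960 tested tiles, 284 were called, which is 0.342%. Methylation was higher in NZO/HlLtJ in 161 of them (0.194% of tested tiles) and lower in 123 (0.148%). In all 284 the 3 samples of one strain lay above the 3 of the other, as they did in 16% of all tested tiles. The median size of the difference was 39.5 points in called tiles and 2.45 points over all tested tiles, where the median signed difference was 0.256 points. Differences of at least 50 points were called in 30 tiles higher in NZO/HlLtJ and in 34 tiles lower in it. Higher in NZO/HlLtJ was the more frequent direction at the 25-point minimum but not at 50 points, nor when tiles of 3 or 4 positions were also tested, with 105 higher and 119 lower. An unadjusted p under 0.05 was reached by 8398 tiles, or 10.1%.

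**Figure D1:**
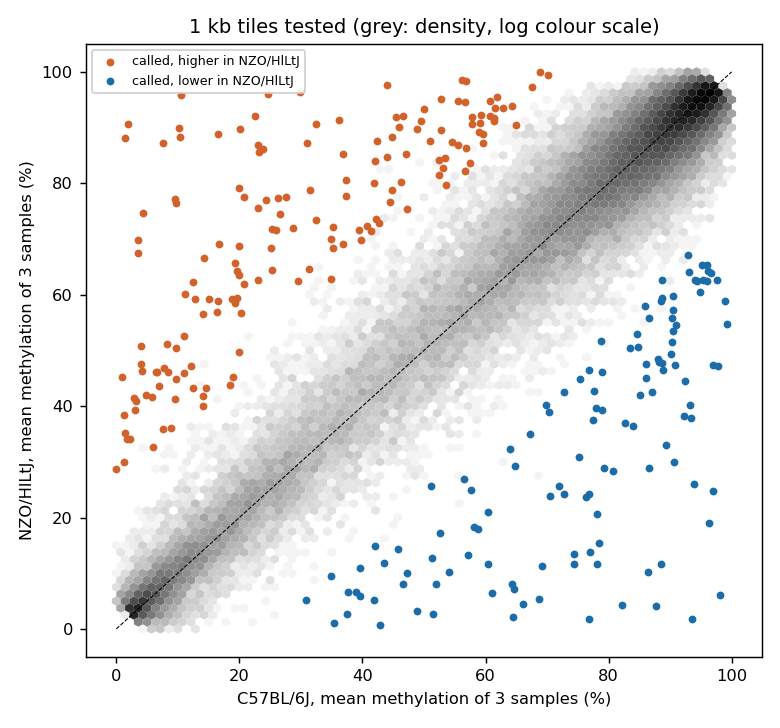
Mean methylation of each tested 1 kb tile in C57BL/6J (x axis, %) and NZO/HlLtJ (y axis, %), 3 samples each; grey shows the density of all tested tiles on a log colour scale and coloured points are called tiles. Most tiles lie along the diagonal, and the 161 orange points (higher in NZO/HlLtJ) and 123 blue points (lower) lie away from it by at least 25 points.

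The calls depended on having all 6 samples. With a sample left out, 36 tiles were called without NZO/HlLtJ replicate 1, 59 without replicate 2 and 63 without replicate 3. Without C57BL/6J replicates 1, 2 or 4 the counts were 130, 109 and 144. Only 35 tiles were called in every one of these 6 fits, 17 of them higher in NZO/HlLtJ, and 118 of the 284 were called in none. Each of these fits has fewer samples and so less power, so that a lost call need not mean a smaller difference. Below, the number of these 6 fits that kept a call is given where it was not all 6.

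In 63 of the called tiles every position differed by at least 25 points in the direction of the tile, and in 143 at least 80% of positions did. In 31 the median position differed by less than 25 points, so that the tile rested on some of its positions. Of tiles higher in NZO/HlLtJ, 66 were at 20% or less in C57BL/6J and 68 were at 80% or more in NZO/HlLtJ. Of tiles lower in NZO/HlLtJ, 45 were at 20% or less in it and 59 were at 80% or more in C57BL/6J. A change from one end of the scale to the other, between 20% or less and 80% or more, was seen in 7 tiles in each direction.

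Among the tiles that were lower in NZO/HlLtJ, the largest difference lay in the pseudogene Gm12859 on chromosome 4 (118497001 to 118498000). Its 10 positions averaged 97.1, 98.4 and 98.8% in C57BL/6J and 6.83, 3.08 and 8.13% in NZO/HlLtJ (difference -92.1 points, limma adjusted p = 0.00078). All 10 positions fell on the same side, by 88.2 to 94.9 points each. The next lay outside genes on chromosome 7, where adjacent tiles from 63802001 to 63804000 had 27 positions and strain means of 93.8 and 13.8%. The protein-coding gene 4930519G04Rik held 2 adjacent tiles on chromosome 5 (114878001 to 114880000). In the first of them the C57BL/6J samples were at 88.0, 87.9 and 87.4% and the NZO/HlLtJ samples at 4.5, 2.43 and 5.28% (difference -83.7 points, adjusted p = 0.00078, limma). The order was completed by a tile outside genes on chromosome 17 (83341001, -77.9 points), Gm3786 on chromosome 5 (-77.2), D430020J02Rik near Ncapg2 on chromosome 12 (-76.8), Sgk1 on chromosome 10 (-75.0) and a tile outside genes on chromosome 11 (88891001, -72.1). Each of these was called in all 6 fits without a sample. Of the 10 tiles, 3 overlapped a protein-coding gene, these being Sgk1 and 4930519G04Rik, where 58.4% of all tested tiles did.

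The tile in Gm3786 showed how evenly such a stretch could move. All 16 of its positions were lower in NZO/HlLtJ by between 54.1 and 95 points. Its samples were at 97.3, 94.5 and 97.2% in C57BL/6J against 14.3, 22.6 and 20.3% in NZO/HlLtJ. The D430020J02Rik tile lay 161 bp from an annotated start, near Ncapg2, a subunit of the condensin II complex. Samples there were at 86.9, 86.2 and 92.3% in C57BL/6J and at 17.2, 4.3 and 13.5% in NZO/HlLtJ, so that the lowest C57BL/6J sample stood far above the highest NZO/HlLtJ sample.

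Of the 10 tiles with the largest differences in the other direction, 6 overlapped a protein-coding gene, near the 58.4% of all tested tiles. First stood a tile outside genes on chromosome 9 (100446001 to 100447000, nearest Gm28166), at 5.56, 0.309 and 0.0% in C57BL/6J and 89.2, 94.3 and 88.1% in NZO/HlLtJ (difference 88.6 points, limma adjusted p = 0.002). The Trim7 tile followed (chromosome 11, 48826001 to 48827000), which holds the 5 listed positions of the promoter window printed above. Its 8 positions averaged 0.0, 2.78 and 1.56% in C57BL/6J and 82.1, 92.6 and 89.7% in NZO/HlLtJ (86.7 points, adjusted p = 0.0019, limma). Ldlrad3, a receptor with low-density lipoprotein receptor class A domains, was at 14.6, 5.09 and 11.8% against 96.4, 91.9 and 99.4% (85.4 points). Coro2b, an actin-binding coronin, was at 4.69, 7.81 and 17.9% against 91.2, 87.5 and 91.1% (79.9 points). In each of these 4 tiles every C57BL/6J sample was under 20% and every NZO/HlLtJ sample over 80%.

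The rest of the 10 were tiles outside genes on chromosome 11 (53903001, 79.7 points), chromosome 17 (39011001, 77.9) and chromosome 9 (7800001, 71.4), and tiles in Tmem104 (72.3), Pi4k2a (70.4) and Plac8 (69.7). Pi4k2a, a phosphatidylinositol 4-kinase of endosomes and the Golgi, was at 6.75, 1.85 and 4.23% in C57BL/6J and at 82.8, 66.9 and 74.4% in NZO/HlLtJ (limma adjusted p = 0.0041). Plac8, which encodes a small cysteine-rich protein with a part in brown fat and immune cells, was at 23.3, 18.3 and 18.5% against 86.2, 96.3 and 86.8% (adjusted p = 0.0066, limma). The chromosome 9 tile at 7800001 was the least even of the 10. Its C57BL/6J samples were at 35.7, 9.52 and 28.6%, and its call was kept in 0 of the 6 fits without a sample. The other 9 tiles kept theirs in all 6.

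**Figure D2:**
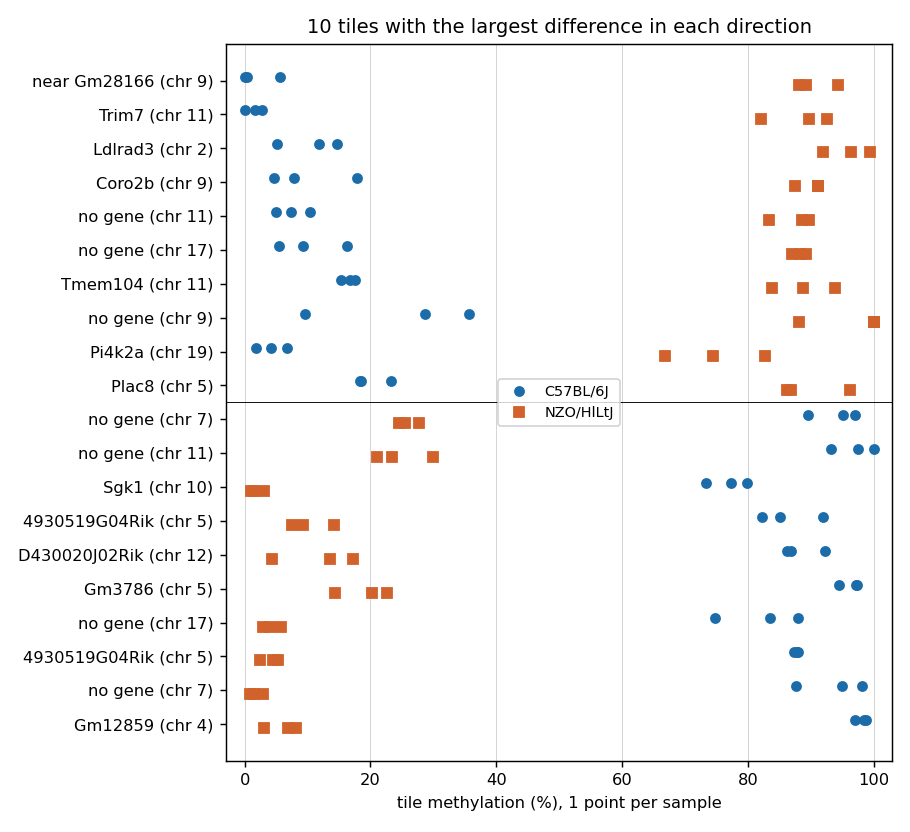
Methylation (%) of every sample in the 10 called tiles with the largest difference in each direction, higher in NZO/HlLtJ above the line and lower below it; each point is 1 sample and labels give the overlapping gene and chromosome. No tile has overlapping strains, and the widest spread within a strain is that of C57BL/6J at chromosome 9 (no gene), from 9.52 to 35.7%.

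Called tiles mostly stood alone. Runs of called tiles with the same direction and starts at most 2 kb apart numbered 9 and held 19 of the 284 tiles. The longest lay in the span of Wnt5a, a secreted Wnt ligand of the non-canonical branch that is made by stromal cells of the liver and by inflamed fat. Its 3 adjacent tiles on chromosome 14 (28509001 to 28512000) held 75 positions with means of 23.1% in C57BL/6J and 69.6% in NZO/HlLtJ. The first tile was at 18.5, 24.6 and 15.6% against 67.2, 62.8 and 62.7% (44.7 points, limma adjusted p = 0.012). The second was at 38.4, 31.6 and 40.5% against 88.8, 81.7 and 85.4% (48.5 points, limma adjusted p = 0.0089). In the third, samples were at 11.8, 14.0 and 12.6% against 64.7, 57.7 and 55.1% (46.4 points, limma adjusted p = 0.0064). A tile of 56 positions about 4 kb away did not follow, at 6.72% ± 2.53 and 5.18% ± 0.779 (SD, n = 3). The Wnt5a calls were kept in 2, 4 and 4 of the 6 fits without a sample.

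The other runs had 2 tiles each. Ptk7, a Wnt co-receptor without kinase activity, was higher in NZO/HlLtJ over 110 positions (16.4 and 56.5%). Zfp697 was higher over 216 positions (1.78 and 34.6%), Unkl over 37 (6.22 and 43.9%) and 2500002B13Rik over 18 (24.0 and 66.2%). Of the 6 fits without a sample, 2 and 3 kept the tiles of Ptk7, 4 and 1 those of Unkl, and 4 and 0 those of 2500002B13Rik, while all 6 kept both of Zfp697. The samples of Zfp697 were even, at 2.19, 1.96 and 2.46% against 36.2, 32.8 and 33.1% in its first tile. Runs lower in NZO/HlLtJ were those on chromosomes 7 and 5 given above, one outside genes on chromosome 16 (32200001 to 32202000, 76.6 and 24.0%) and one near Gm42350 on chromosome 4 (148785001 to 148788000, 75.2 and 33.5%). The tiles on chromosome 16 were kept in 3 and 5 of the 6 fits, and those near Gm42350 in none.

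**Figure D3:**
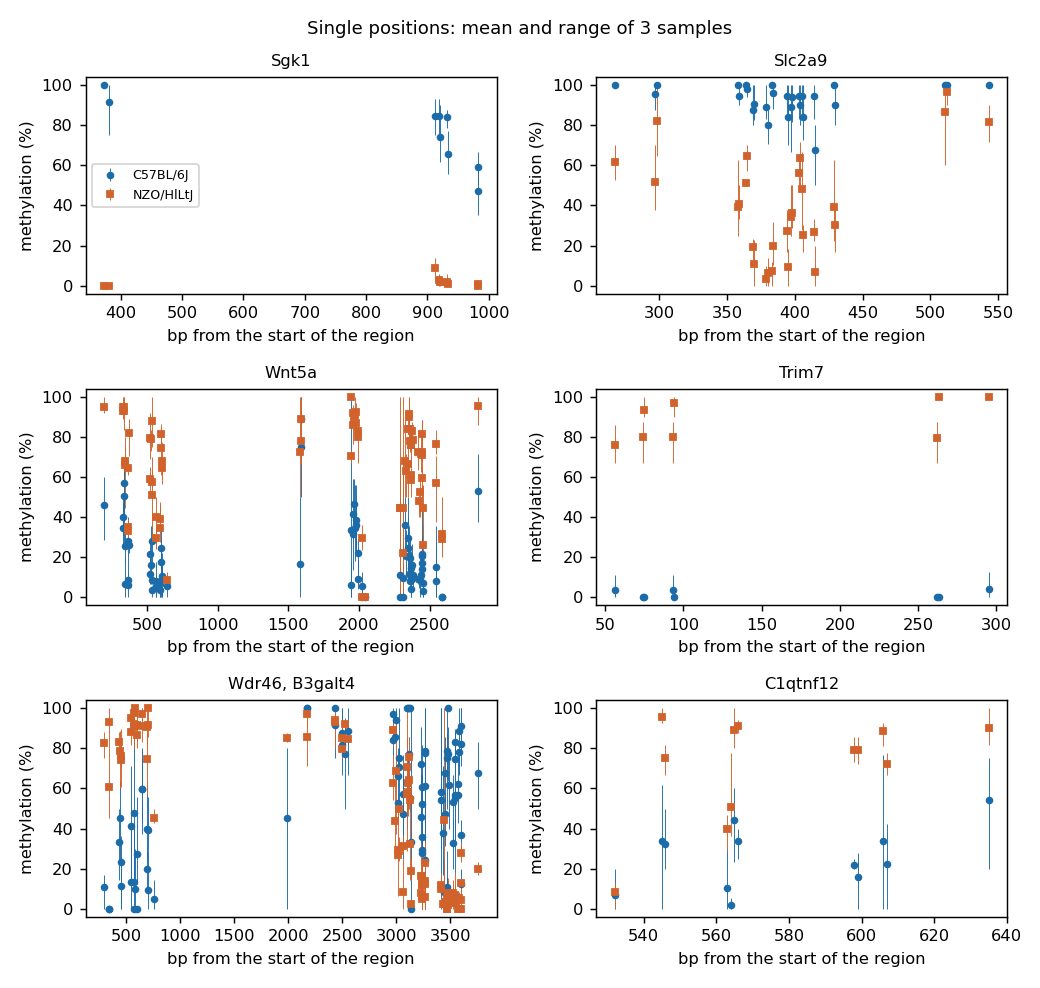
Methylation (%) of single positions against distance (bp) from the start of the region in 6 regions with called tiles; points are means of 3 samples and bars run from the lowest to the highest sample. Blue circles (C57BL/6J) and orange squares (NZO/HlLtJ) separate over whole groups of adjacent positions in Sgk1, Wnt5a and Trim7, while in the region of Wdr46 and B3galt4 the order of the strains turns between the 2 ends.

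Genes of liver metabolism were examined through 10 lists of 565 genes, of which 453 had at least 1 tested tile. Of their 1944 tested tiles 5 were called, or 0.257%, close to the 0.342% of all tested tiles. Of these, 4 were lower in NZO/HlLtJ (Sgk1, Slc2a9, Tbc1d4 and Abcc4) and 1 was higher (Igf2r). That balance turned with the processing, being 5 higher and 6 lower on the untransformed percent scale, 4 and 3 with positions listed in all 27 files, and 7 and 4 when the spread was also shared over the 9 strains. In at least 1 alternative a call was gained by tiles of Akt1, Hnf4a, Nr2f6, Nr2f2, Rxrg, Slc2a5, Sult2b1, Prkag2, Shmt1, Hsd17b4, Fmo1, Pck1, Mlycd and Cyp2c23 and by a further tile of Sgk1. Another 18 list tiles differed by 25 points or more without reaching the adjusted p. Over all 82960 tested tiles, 642 differed by at least 25 points and 284 of these were called, so that most such tiles went uncalled. Whether list tiles differ from other tiles in this was not tested. The median size of the difference was 2.52 points in list tiles and 2.45 points over all tested tiles. The strains did not overlap in 18.4% of list tiles and in 16% of all tested tiles.

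Gene starts of the lists were low in both strains. Within 1 kb of an annotated start, 321 list genes had 5 or more shared positions, with median levels of 0.889% in C57BL/6J and 0.801% in NZO/HlLtJ. Both strains were at 10% or less for 273 of them. Fasn (fatty acid synthase) was at 0.499% ± 0.285 and 0.543% ± 0.146 (SD, n = 3), Srebf1 at 0.42% ± 0.23 and 0.399% ± 0.0487, and Ppara at 0.278% ± 0.089 and 0.42% ± 0.0989. Irs2, the insulin receptor substrate that predominates in fasting liver signalling, was at 0.372% ± 0.0862 and 0.412% ± 0.0319. At these key regulators the start was essentially free of methylation in lean and obese strain alike.

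Of the 321 starts, 3 differed by 10 points or more, which is a description without a test and was not set against the starts of other genes. Bdh1, the ketone body enzyme 3-hydroxybutyrate dehydrogenase, was at 58.9% ± 1.61 in C57BL/6J and 70.6% ± 4.38 in NZO/HlLtJ (SD, n = 3). Igf2r was at 36.5% ± 6.92 and 25.7% ± 1.61. Pck1, the phosphoenolpyruvate carboxykinase of gluconeogenesis, was at 14.5% ± 5.94 and 4.47% ± 2.19.

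The insulin, IGF and nutrient signalling list held 3 of the 5 called tiles (409 tested, 0.733% against 0.342% of all tested tiles). Sgk1 encodes a kinase downstream of the insulin and glucocorticoid signals and a close relative of Akt. Its tile on chromosome 10 (21997001 to 21998000), 2335 bp from the nearest annotated start, was at 73.3, 77.4 and 79.9% in C57BL/6J and at 1.49, 3.1 and 1.01% in NZO/HlLtJ. All 9 positions were lower in NZO/HlLtJ, by 46.2 to 100 points, and the groups stood over 70 points apart (difference -75.0, limma adjusted p = 0.0014). This call was kept in all 6 fits without a sample. The adjacent tile of 11 positions moved the same way but missed the threshold, at 79.4, 69.3 and 66.4% against 40.1, 38.7 and 35.7% (-33.5 points, adjusted p = 0.052, limma). Sgk1 starts averaged 6.61 and 4.42% over 221 positions, so that this average showed no difference of such a size. A further Sgk1 tile, at 21991001, was also lower in NZO/HlLtJ but was not called. It was at 28.2% ± 10.2 and 9.82% ± 2.2 (SD, n = 3, -18.4 points, adjusted p = 0.22, limma).

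Tbc1d4, the Akt substrate that restrains movement of the glucose transporter GLUT4, was lower in NZO/HlLtJ at 5 positions on chromosome 14 (101501001 to 101502000). Samples were at 43.2, 64.9 and 54.3% against 13.1, 8.0 and 9.41% (-44.0 points, limma adjusted p = 0.022). The C57BL/6J samples were widely spread but all lay above those of NZO/HlLtJ, and 1 of the 6 fits without a sample kept the call. Igf2r, the receptor that clears IGF2 and is imprinted in mice, was the only list gene called higher in NZO/HlLtJ. Its 5 positions on chromosome 17 (12692001 to 12693000) gave 20% in each C57BL/6J sample and 56.4, 50 and 42.7% in NZO/HlLtJ (29.7 points, adjusted p = 0.044, limma). With no spread seen in C57BL/6J, that p rested on the spread of NZO/HlLtJ and the spread shared by all tiles. Of its 5 positions 3 differed by 25 points or more, and none of the 6 fits without a sample kept this call. A different Igf2r tile, at 12770001, went the other way with overlapping samples and was not called, at 4.76, 61.9 and 48.8% against 10.7, 0.0 and 27.1% (-25.9 points, adjusted p = 0.67, limma).

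Akt1, the kinase itself, had the largest list difference that was not called. Its 7 positions on chromosome 12 (112665001 to 112666000) were at 2.86, 0.0 and 24.3% in C57BL/6J and at 77.1, 67.9 and 65.1% in NZO/HlLtJ (61.0 points, limma adjusted p = 0.069). The strains did not overlap, and C57BL/6J replicate 4 stood above the other samples of its strain. The tile was called without that sample (68.6 points, adjusted p = 0.016, limma) and on the untransformed percent scale (adjusted p = 0.023, limma). None of the other fits without a sample called it. Prkag2, a regulatory subunit of the energy sensor AMPK, passed the test but not the minimum of 25 points, at 8.16, 8.02 and 8.74% against 29.8, 31.0 and 28.9% (21.6 points, adjusted p = 0.02, limma). In Insr, the insulin receptor, the largest difference was 23.7 points (38.1, 47.6 and 49.4% against 70.6, 69.0 and 66.6%, adjusted p = 0.11, limma).

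**Figure D4:**
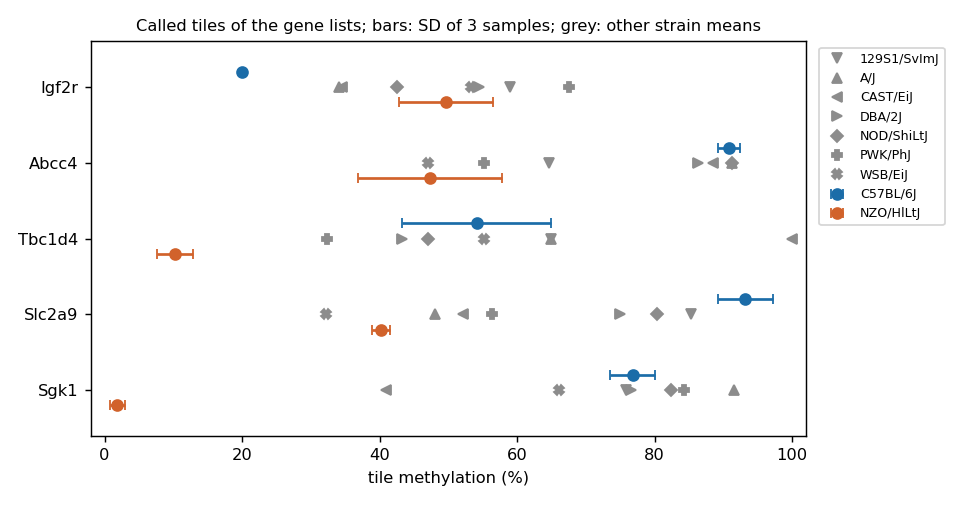
Methylation (%, x axis) of the 5 called tiles of the metabolism lists; coloured points are means of 3 samples with SD bars for C57BL/6J (blue) and NZO/HlLtJ (orange), and grey symbols are means of the other 7 strains. NZO/HlLtJ lies below every other strain in Sgk1 and Tbc1d4, and C57BL/6J lies above or below every other strain in Slc2a9 and Igf2r.

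Among the genes of glucose, fructose and glycogen metabolism 1 of 236 tiles was called (0.424%), near the 0.342% of all tested tiles. Slc2a9 encodes the urate transporter GLUT9, through which hepatocytes take up urate for breakdown. Its tile of 28 positions on chromosome 5 (38477001 to 38478000) was at 94.4, 88.7 and 96.4% in C57BL/6J and 38.9, 40.2 and 41.5% in NZO/HlLtJ. At 24 of the 28 positions the difference was 25 points or more, and no position was higher in NZO/HlLtJ (tile -53.0 points, limma adjusted p = 0.0066). Single positions ran from 3.33 to 96.7% in NZO/HlLtJ and from 67.6 to 100% in C57BL/6J. Tiles of Slc2a9 starting 4 kb and 7 kb farther on were not called, at 31.3% ± 1.99 and 37.0% ± 5.77 and at 91.8% ± 2.4 and 92.6% ± 3.01 (SD, n = 3). A tile at 38351001 went the other way without being called, at 58.3, 52.5 and 73.6% against 100, 86.1 and 79.3% (limma adjusted p = 0.34). The call at 38477001 was lost without any 1 of the 3 NZO/HlLtJ samples.

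No other tile of this list was called. Slc2a5, the fructose transporter, was nearest, at 36.9, 30.9 and 34.3% in C57BL/6J and 58.6, 62.9 and 57.2% in NZO/HlLtJ (25.5 points, limma adjusted p = 0.068). Pfkfb3, which makes the glycolytic activator fructose 2,6-bisphosphate, had a largest difference of 21.8 points, with strains that did not overlap but nearly met. At Pck1 the largest tile difference was -17.4 points (27.2, 33.6 and 12.1% against 9.09, 8.7 and 3.03%, adjusted p = 0.29, limma). In Slc2a1 and Hk1 the largest differences were 16.1 and 14.3 points, both higher in NZO/HlLtJ and neither past the test.

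No tile was called by limma for lipogenesis and triglyceride synthesis (156 tested, 15 at an unadjusted p under 0.05). Over all tested tiles the shares were 0.342% called and 10.1% at such a p. At that share of calls, a list of this size can well hold none. The largest difference was in Elovl2, an elongase of polyunsaturated fatty acids, at 39.2, 41.4 and 17.6% in C57BL/6J and 56.6, 66.3 and 59.9% in NZO/HlLtJ (28.3 points, limma adjusted p = 0.25). Scap (16.0 points), Srebf1 (15.9), Acacb (15.0) and Lpin1 (13.8) were higher in NZO/HlLtJ in their largest tile and Dgat2 lower (-13.3), none past the test. Srebf1, the master regulator of lipogenic genes, was at 10, 13.3 and 5.0% there against 29.4, 19.2 and 27.5%. These strains did not overlap in Srebf1, but the difference was small against the 25-point minimum.

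For cholesterol and bile acid metabolism 0 of 153 tiles were called by limma, where 0.342% of all tested tiles were. At an unadjusted p under 0.05 there were 15, against 10.1% of all tested tiles. Srebf2, the regulator of cholesterol synthesis, was at 50.3, 53.6 and 51.2% in C57BL/6J and 30.4, 35.4 and 35.1% in NZO/HlLtJ (-18.1 points, limma adjusted p = 0.15). Cyp7a1, the rate-limiting enzyme of bile acid synthesis, was at 36.4, 42.5 and 37.7% against 50.2, 53.8 and 57.8% (15.0 points). Strains did not overlap in either tile, and neither passed the test. In Lcat the difference of -17.6 points came from 1 C57BL/6J sample at 55.6%, the other 5 samples being at 2.78% or less. Scarb1 differed by -16.0 points and Lrp1 by 15.0, without overlap and without passing the test.

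Fatty acid oxidation and ketogenesis had 0 called of 101 tiles (limma, 0.342% of all tested tiles were called). An unadjusted p under 0.05 was reached by 19 of them, and by 10.1% of all tested tiles. The strains did not overlap in 23.8% of the list's tiles and in 16% of all tested tiles. Hsd17b4, a peroxisomal oxidation enzyme, was at 80, 100 and 70% in C57BL/6J and 33.3, 32.0 and 28.0% in NZO/HlLtJ (-52.2 points, limma adjusted p = 0.16). The tile held 5 positions, and its C57BL/6J samples were widely spread. Fgf21, the fasting hormone of the liver, was at 34.8, 31.9 and 24.6% against 56.5, 50.4 and 50.5% (22.0 points, adjusted p = 0.14, limma). Echs1 (-27.0), Hadha (17.2), Acsl1 (-16.6) and Acaa1b (15.1) did not pass the test in their largest tile either.

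Lipid uptake, droplets and lipoproteins had 0 called of 134 tiles (limma, 14 at an unadjusted p under 0.05). Among all tested tiles 0.342% were called and 10.1% were at such a p. Plin1, a coat protein of lipid droplets, was at 50, 29.9 and 39.6% in C57BL/6J and 15.4, 15.7 and 18.1% in NZO/HlLtJ (-23.4 points, limma adjusted p = 0.14). Angptl6, a secreted angiopoietin-like factor, was at 16.6, 16.5 and 12.6% against 35.3, 36.7 and 35.7% over 43 positions (20.7 points, adjusted p = 0.059, limma). Lrp5 passed the test below the 25-point minimum, at 100% in each C57BL/6J sample against 87.4, 78.9 and 91.1% (-14.2 points, adjusted p = 0.049, limma). Here too C57BL/6J showed no spread of its own. Mttp, which loads lipid onto apolipoprotein B, differed by -16.4 points, Apoc1 by -15.2 and Plin4 by -13.0.

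Nuclear receptors and coregulators had 0 called of 348 tiles, 55 of them at an unadjusted p under 0.05 in limma. Of all tested tiles, 0.342% were called and 10.1% reached such a p. The strains did not overlap in 21.8% of the list's tiles and in 16% of all tested tiles. Hnf4a, which defines hepatocyte identity, was at 58.3, 84.9 and 86.1% in C57BL/6J and at 47.4, 45.4 and 47.8% in NZO/HlLtJ in its largest tile (-29.6 points, limma adjusted p = 0.25). Without C57BL/6J replicate 1, the lowest of its strain, the tile was called (-38.6 points, adjusted p = 0.032, limma). No other fit without a sample called the Hnf4a tile, nor did any other setting in which list tiles were counted. Nr2f6 differed by 25.7 points over 65 positions (29.0, 32.6 and 35.8% against 61.9, 53.4 and 59.1%, adjusted p = 0.08, limma). It was called on the percent scale (adjusted p = 0.024, limma), with at least 10 positions per tile (0.019) and over positions listed in all 27 files (0.034). The xenobiotic receptor Nr1i2 differed by -24.4 points, Rxra by -22.8, Nr2f2 by 26.6 and Rxrg by 22.0, none past the test.

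Amino acid, urea and one-carbon metabolism had 0 called of 164 tiles (limma, 18 at an unadjusted p under 0.05). The shares over all tested tiles were 0.342% called and 10.1% at such a p. Cps1, the entry enzyme of the urea cycle, was at 30, 40.4 and 64.0% in C57BL/6J against 66.7, 72.0 and 80% (28.1 points, limma adjusted p = 0.32). Hal, the first enzyme of histidine breakdown, was at 44.2, 46.9 and 44.1% against 12.6, 9.82 and 34.2% (-26.2 points, adjusted p = 0.25, limma). In both, the strains did not overlap but 1 strain was spread over more than 20 points. Ass1 (25.5 points), Gpt (-22.9), Shmt1 (20.7) and Pemt (17.8) did not pass the test.

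Xenobiotic and steroid metabolism had 1 called tile of 243 (0.412%), again near the 0.342% of all tested tiles. Abcc4 encodes an efflux pump of the hepatocyte's blood-facing membrane that exports bile acids and cyclic nucleotides. Its tile on chromosome 14 (118663001 to 118664000) was at 91.8, 89.0 and 91.7% in C57BL/6J and 38.3, 44.8 and 58.9% in NZO/HlLtJ (-43.5 points, limma adjusted p = 0.017). All 10 positions were lower in NZO/HlLtJ by 28.8 to 53.8 points, and 1 of the 6 fits without a sample kept the call. A different Abcc4 tile went the other way, at 74.6, 48.0 and 43.5% against 83.2, 81.8 and 79.7%, and was not called (26.2 points, adjusted p = 0.28, limma). Fmo1 (-30.6 points), Abcc3 (28.3), Sult2b1 (25.2), Cyp2c23 (19.7) and a tile shared by Cyp2c38 and Cyp2c39 (-18.3) were not called. Neighbouring Cyp2c genes are near copies of each other, and how the authors' alignment divided their reads is uncertain.

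The last list held 12 genes named in genetic studies of NZO obesity and diabetes, of which 9 had a tested tile. None of its 31 tiles was called by limma, where 0.342% of all tested tiles were. With so few tiles, a call was unlikely at that share. An unadjusted p under 0.05 was reached by 2, and by 10.1% of all tested tiles. Pctp, a phosphatidylcholine transfer protein, was at 33.3, 28.3 and 34.7% in C57BL/6J and 48.3, 33.3 and 69.4% in NZO/HlLtJ (18.2 points, limma adjusted p = 0.54). Tbc1d1, a relative of Tbc1d4 that acts on glucose uptake and fat use in muscle, was at 53.3, 78.6 and 67.1% against 63.2, 92.9 and 94.3% (17.1 points). Samples of the strains overlapped in both. Igfbp2 differed by 9.03 points, and Zfp69, whose intact form promotes diabetes in obese mice, by 1.85 points in its largest tile. Starts of Zfp69 (0.743 and 0.69%) and of the leptin receptor Lepr (0.733 and 0.802%) were unmethylated in both strains.

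Beyond the lists, called tiles lay in other genes of metabolism, picked after their values were seen and so not counted for any group. Cers6, the ceramide synthase that makes C16 ceramides and is linked to hepatic steatosis, was at 61.7, 76.4 and 56.0% in C57BL/6J and at 2.86, 8.63 and 10.1% in NZO/HlLtJ (-57.5 points, limma adjusted p = 0.016, kept in 2 of 6 fits without a sample). Epas1, the hypoxia-inducible factor 2 alpha, was at 91.7, 81.9 and 94.4% against 33.7, 26.2 and 39.0% (-56.4 points, adjusted p = 0.016, limma, kept in 1). Slc7a8, an amino acid transporter, had 2 tiles lower in NZO/HlLtJ 8 kb apart, by 44.6 and 50.3 points (kept in 1 and 3). Me3, a mitochondrial malic enzyme, was at 84.2, 82.9 and 83.3% against 53.3, 51.6 and 46.2% (-33.1 points, kept in 0). In these 4 genes C57BL/6J was the more methylated strain.

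Others were higher in NZO/HlLtJ. C1qtnf1, a secreted relative of adiponectin, was at 45.0, 45.8 and 45.3% in C57BL/6J and 94.6, 90.5 and 90.8% in NZO/HlLtJ (46.6 points, limma adjusted p = 0.0048, kept in all 6 fits). Scp2, the sterol carrier protein and peroxisomal thiolase, was at 5.67, 6.61 and 0.0% against 58.1, 50 and 44.1% (46.7 points, adjusted p = 0.017, limma, kept in 1). Klf9, a transcription factor induced by glucocorticoids, was at 4.06, 14.8 and 14.0% against 55.0, 46.9 and 56.0% (41.7 points, kept in 1). Prkce, a protein kinase C isoform activated by diacylglycerol in fatty liver, was at 42.5, 47.3 and 51.6% against 84.7, 86.5 and 84.3% (38.0 points, kept in 2). Rassf4, 5 kb or less from the fasting-induced gene Depp1, was at 16.1, 31.7 and 19.7% against 85.9, 94.9 and 95.1% (69.5 points, kept in 4). Strains were apart in each of these tiles, as in all called tiles, with C57BL/6J below.

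Of the called tiles with a start table, 21 of 276 held an annotated start (7.61%), against 4.79% of all tested tiles. Ndufc2, a subunit of respiratory complex I, was at 0.481, 1.74 and 2.95% in C57BL/6J and at 38.4, 37.7 and 26.0% in NZO/HlLtJ at its start (32.3 points, limma adjusted p = 0.01, kept in 3 of 6 fits). Zfp872 was at 9.66% ± 1.87 against 76.5% ± 2.32 (SD, n = 3) and Zfp772 at 1.19% ± 1.43 against 38.5% ± 3.64, the latter kept in 5 of the 6 fits. Both are zinc finger genes. Klhl33 went the other way, at 66.1% ± 8.08 in C57BL/6J and 4.52% ± 1.6 in NZO/HlLtJ. Start tiles were higher in NZO/HlLtJ in 15 cases and lower in 6. These were 9.43% of the 159 higher and 5.13% of the 117 lower called tiles with a start table. The share of the lower tiles was thus near the 4.79% of all tested tiles.

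The B3galt4 start lay in a stretch of chromosome 17, singled out after its values were seen, where the direction turned once. The tile in Wdr46 at 33948001 was at 26.3, 29.0 and 14.3% in C57BL/6J and 86.2, 85.5 and 85.1% in NZO/HlLtJ (62.4 points, limma adjusted p = 0.0066, kept in 3 fits). At 33951001, over the adjoining ends of B3galt4 and the ribosomal protein gene Rps18, 56 positions were at 54.6, 57.6 and 62.4% against 19.6, 18.5 and 16.8% (-39.9 points, adjusted p = 0.01, limma, kept in 2). In Vps52 at 33965001 the samples were at 100, 100 and 96.7% against 58.2, 60.0 and 58.2% (-40.1 points, adjusted p = 0.0048, limma, kept in 5). None of the tested tiles between them was called. One held 43 positions at 6.01% ± 1.13 and 6.41% ± 2.37 (SD, n = 3), and the one at 33950001 differed by -9.29 points. Meox1, a mesodermal homeobox gene, had a like turn over 2 kb, with 20% ± 5.52 and 79.2% ± 1.35 at 101879001 and 39.7% ± 2.1 and 10.9% ± 1.92 at 101881001 on chromosome 11. The tile between, at 89.3% ± 2.4 and 87.1% ± 2.64, did not differ by more than its spread. The call at 101879001 was kept in 5 of the 6 fits and that at 101881001 in none.

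The 7 strains that took no part in the calls did not line up with either side. A value in all 7 was available for 224 called tiles. In 24 of them every other strain was nearer to NZO/HlLtJ, in 16 every other strain was nearer to C57BL/6J, and in 184 the strains were divided. By strain, the share of called tiles nearer to NZO/HlLtJ ran from 49.2% in CAST/EiJ to 60.1% in DBA/2J. Sgk1 was a tile where NZO/HlLtJ stood alone, with the other 7 strains between 41.0% (CAST/EiJ) and 91.5% (A/J). In the chromosome 9 tile near Gm28166 the others were at 0.275 to 12.1%, far from the 90.6% of NZO/HlLtJ. At C1qtnf1 it was C57BL/6J that stood alone, with the other 7 at 79.2 to 96.1% against its 45.4%. The Trim7 start was at 70.5% in PWK/PhJ, 31.4% in 129S1/SvImJ and 9.49% or less in the other 5. Levels at Slc2a9 formed a gradient, from 32.2% in WSB/EiJ to 85.3% in 129S1/SvImJ, inside which NZO/HlLtJ (40.2%) lay and above which C57BL/6J (93.2%) lay.

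**Figure D5:**
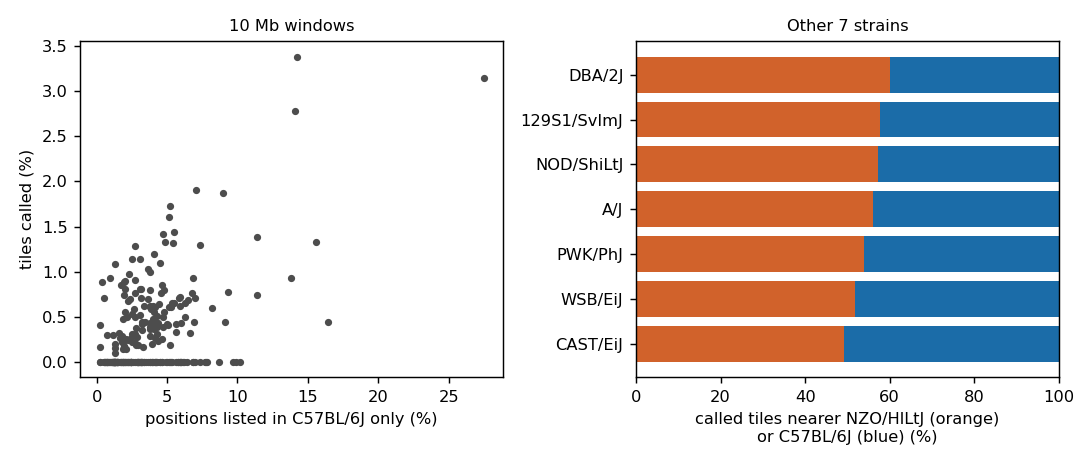
Left, share of tested tiles called (%) in each of 252 windows of 10 Mb against the share of C57BL/6J positions listed in no NZO/HlLtJ sample (%). Right, for each of the other 7 strains, the share of called tiles whose mean was nearer to NZO/HlLtJ (orange) or to C57BL/6J (blue), from 49.2% orange in CAST/EiJ to 60.1% in DBA/2J.

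Which positions a file lists also differed by strain, and this moved with the calls. Among positions that every C57BL/6J file lists, 3.74% (96258) appeared in no NZO/HlLtJ file, and in the other direction 3.69% (99096). Such a C57BL/6J-only position lay in 29.2% of called tiles and in 7.6% of tested tiles that were not called. NZO/HlLtJ-only positions lay in 27.5 and 8.91%. Among tiles lower in NZO/HlLtJ, 36.6% had a C57BL/6J-only and 32.5% an NZO/HlLtJ-only position, and among tiles higher in it the share was 23.6% for each kind, a difference that was not tested. At Sgk1, Slc2a9, Tbc1d4, Abcc4 and Igf2r there were 0 such positions of either kind, at Gm12859 10 of the C57BL/6J kind and at Trim7 4. A base change between the strains can remove a CpG or be read as its unmethylated form, and its part in these calls was not tested.

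The calls were not evenly spread. Chromosome 17 had the highest share of tested tiles called (0.784%, 30 of 3827), then chromosome 14 (0.686%), and the X chromosome the lowest (0.107%, 3 of 2810). Of 252 windows of 10 Mb with 100 or more tested tiles, 116 had no call. Over these windows the share called rose with the share of C57BL/6J-only positions, with Pearson r = 0.514 and Spearman rho = 0.304 as a description, since neighbouring windows share haplotypes and both measures come from the same files. With the windows split by that share into 3 sets of 84, 0.177, 0.361 and 0.564% of tiles were called. By share, the highest windows were chromosome 14 from 40000001 to 50000000 (3.38%, 5 of 148 tiles), chromosome 12 from 20000001 to 30000000 (3.14%, 5 of 159) and chromosome 13 from 60000001 to 70000000 (2.78%, 6 of 216). By number, they were chromosome 5 from 110000001 to 120000000 (10 of 1231, 0.812%) and chromosome 17 from 30000001 to 40000000 (10 of 577, 1.73%). The last of these holds the Wdr46, B3galt4 and Vps52 tiles and the chromosome 17 tile at 39011001.

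Single positions gave few calls, 323 of 1101886 tested (0.0293%), with 107 higher in NZO/HlLtJ (0.00971%) and 216 lower (0.0196%). That direction was not stable, since positions listed in all 27 files gave 134 higher and 128 lower. Leaving out C57BL/6J replicate 1 gave 114 higher and 90 lower, and leaving out replicate 2 gave 138 and 116. Without any 1 of the NZO/HlLtJ samples limma called 0 positions, with 57982 to 61314 at an unadjusted p under 0.05. Of the 216 lower positions, 123 were at 0% in all 3 NZO/HlLtJ samples and 105 at 100% in all 3 C57BL/6J samples. Of the 107 higher positions, 86 were at 0% in all 3 C57BL/6J samples. The 3 values of each strain were equal in 76 of the 323 called positions (23.5%) and in 0.0195% of tested positions, so that these 76 had no measured spread. Of the 216 lower positions 149 lay in a tested tile, 74 of them in a called one, and of the 107 higher positions 76 lay in a tested tile, 51 of them in a called one.

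The labelled cell type could be checked only in part, since RRBS covered few starts of marker genes. Of 12 hepatocyte markers 4 had a start level. In C57BL/6J and NZO/HlLtJ, Fgb was at 6.08 and 2.86%, Hnf4a at 6.66 and 3.06%, Apoa2 at 1.16 and 1.3% and Apob at 10.4 and 9.37%. No start of the lymphocyte and myeloid lists had enough positions. Cholangiocyte starts had medians of 34.2% in C57BL/6J and 47.2% in NZO/HlLtJ over 4 genes, and Krt7 was at 18.3% ± 3.93 and 34.6% ± 5.21 (SD, n = 3). Stellate and fibroblast starts had medians of 2.46 and 3.62% over 4 genes, and the 1 endothelial start was at 2.58 and 2.92%. Low starts were thus not particular to hepatocyte markers. Over the 6 marker lists 1 of 145 tiles was called (0.342% of all tested tiles were), in Pdgfrb of stellate cells (1 of 31 tiles of that list), at 42.1, 37.4 and 46.7% in C57BL/6J and 11.4, 17.2 and 15.8% in NZO/HlLtJ (-27.2 points, limma adjusted p = 0.044), a call kept in 0 of the 6 fits without a sample. Of the 27 hepatocyte marker tiles 0 were called, and 7 were at an unadjusted p under 0.05 in limma (10.1% of all tested tiles were). The strains did not overlap in 33.3% of these 27, in 7.14 to 18.8% of the other marker lists and in 16% of all tested tiles. A part of other liver cells in the differences was not tested.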

How the data were processed

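RRBS was done on 27 liver samples, of which the 6 of C57BL/6J and NZO/HlLtJ were compared. Libraries were made with a NuGEN kit from MspI-digested, bisulfite-treated DNA, per the labels' protocols. The submitters' processing notes name Trim Galore 0.6.3, Bowtie2, Bismark 0.22 and the builds GRCm38 and mm10, with no role given. The authors deposited a percent methylation per position, per the file headers, without counts or coverage, so no count model or counting interval could be used. A coverage filter is not given in the sources used here. Listed positions in the promoter windows of GRCm38.p6 were at a CG in 99.97% of cases.

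Tile means were tested with the moderated test of limma (Python 3.11.15, numpy 2.4.6) on log2((percent + 5)/(100 - percent + 5)), with Benjamini-Hochberg adjustment over all tiles. The code was tested on simulated data and checked beside limma 3.58.1 under R 4.3.3, with 0 of 82960 tiles on different sides of 0.05. By rule the text names the 10 tiles with the largest difference in each direction, the called tiles of list genes, the largest tile of up to 6 genes per list, and the 5 longest runs. Cyp7a1, Zfp69, the gene starts given by name, the other 4 runs and the further tiles of Sgk1, Slc2a9, Abcc4, Wnt5a and the chromosome 17 and Meox1 stretches were chosen after their values were seen, as were genes said to be so in the text. The members and lists were chosen with earlier results of these data known. Alternatives were the offset, scale, tile definition, filters, centring, position set, spread, replicate block and leaving out each sample. The titles name biological replicates. The p-values rest on the spread between these samples, which limma draws toward the spread shared by all tiles or all positions. For tiles this used 3.33 prior and 4 residual degrees of freedom. Figures were drawn with matplotlib 3.10.9.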

Additional observations from a re-analysis of the deposited data

Results flagged for a closer look

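Positions on the Y chromosome were listed although all animals were labelled female, and they entered none of the comparisons. The median over 3 samples was 936 positions in C57BL/6J and 1009 in NZO/HlLtJ. By sample the numbers were 832, 978 and 936 in C57BL/6J and 1141, 997 and 1009 in NZO/HlLtJ. The source of these listings was not tested.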

How the results depend on the processing

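Against 284 called tiles, an offset of 1 point gave 137, tiles of at least 10 positions gave 166 and a minimum difference of 50 points gave 64. The fits without 1 sample gave 36 to 144 tiles, 1 to 5 list tiles and 0 to 254 positions, with fewer samples in each. The other tile settings gave 195 to 366. List tiles, 5 in the main analysis, were 3 with an offset of 1 point, 11 on the percent scale and 11 with both the spread shared over the 9 strains and positions listed in all 27 files, where that position set alone gave 7. Called positions, 323 in the main analysis, were 78 with an offset of 1 point and 1851 with no filter on the mean. The genome-wide difference stayed between 0.148 and 0.308 points, in designs whose smallest possible p is 0.1. For 31 named tiles, 414 alternative values were computed: 324 kept direction and call, 90 lost the call and 0 reversed. Of the lost calls, 31 came from the replicate block. Some settings could not test every named tile. Tiles of at least 10 positions held 14 of the 31, averaged strands 23, and positions listed in all 27 files 18, with or without the shared spread. No reversal could arise from the offset, scale, replicate block or centring, which leave the difference in points unchanged. Nor could it arise from leaving out 1 sample, since the strains do not overlap in these tiles.

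With a replicate block on the title numbers, limma called 0 tiles, 0 list tiles and 0 positions, with 6793 tiles, 181 list tiles and 76353 positions at an unadjusted p under 0.05. Only the numbers 1 and 2 are shared, and the labels do not say that a number marks a shared batch. The block term of each unshared number fits its sample exactly, which leaves 1 residual degree of freedom against 4 in the main test. The differences in points were unchanged, so the 0 calls cannot show whether a batch was at work. Deviations of same-numbered samples correlated at 0.00741 and 0.00887. A batch acting on some of the tiles was not tested. Unknown read depth limits every value: tiles of 5 positions and single positions may rest on few reads.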
